A study of Homo sapiens with 8 samples.

Results

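The mRNA of 10 chemokines, CXCL1, CXCL2, CXCL3, CXCL8, CXCL9, CXCL10, CXCL11, CXCL16, CCL5 and CCL20, was followed in colorectal cancer cells depleted of UHRF1, a protein that recruits the DNA methyltransferase DNMT1 to newly copied DNA. These genes were chosen by name from a table of 60649 genes, as chemokines that tumor cells can secrete, and all 10 were found in each library. RNA-seq of polyA RNA was available for 8 libraries in 4 groups, with 2 libraries in each group. HCT116 shScr were cells of the human colorectal cancer line HCT116 with a control hairpin. HCT116 shUHRF1 were the same cells with a hairpin against UHRF1. UF1hypo shScr and UF1hypo shUHRF1 carried the same hairpins in UF1hypo cells, a single HCT116 clone in which 1 UHRF1 allele had been knocked out. Every group thus carried a hairpin and had been selected as a stable pool with puromycin, and the harvest day of these libraries is not given in the sources used here. Because UF1hypo is 1 clone, features of that clone and effects of its lost allele cannot be told apart. The sources do not say that the libraries of a group came from separate cultures, so a p-value measures only the spread between these libraries. Values are TPM, StringTie's measure of transcript abundance, a level scaled for gene length and set to the same total in each library.

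Chemokines are small secreted proteins that guide leukocytes along concentration gradients by binding to G protein-coupled receptors. CXCL1, CXCL2, CXCL3 and CXCL8 bind CXCR2 and attract neutrophils, and their genes are classical targets of NF-kB. CXCL9, CXCL10 and CXCL11 are ligands of CXCR3 on activated T cells and are induced by interferons. CCL5 attracts T cells and monocytes, CCL20 attracts CCR6-positive lymphocytes and dendritic cells to mucosal surfaces, and CXCL16 is made as a membrane protein that can be shed and is read by CXCR6.

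The promoters of 8 of the 10 genes were matched by symbol in RefSeq (GRCh38.p14), and those of CXCL16 and CCL5 were not matched. Each window held the 250 bases before the RefSeq start site, which for CXCL2, CXCL3, CXCL8, CXCL11 and CCL20 lies inside the gene as annotated by GENCODE. The windows were searched on both strands for GGAATTTCC, a form of the NF-kB element (reverse complement GGAAATTCC), and for a pair of GAAA separated by any 2 bases, a short form of the interferon-stimulated response element. They were searched on the strand of the gene for TATAAA. The letters of the NF-kB form were chosen with these promoters known. The 4 windows below are shown because they cover 2 neutrophil chemokines that shared the NF-kB letters at different CpG content, CXCL1 (chr4:73869143-73869392, plus strand) and CXCL8 (chr4:73740319-73740568, plus strand), and 2 interferon-type chemokines that held the same letters on the opposite strand, CXCL10 (chr4:76023498-76023747, minus strand) and CXCL11 (chr4:76036071-76036320, minus strand). Capitals mark the NF-kB letters and, in CXCL10, also the GAAA pair. All are written 5′ to 3′ on the strand of the gene.
CXCL1: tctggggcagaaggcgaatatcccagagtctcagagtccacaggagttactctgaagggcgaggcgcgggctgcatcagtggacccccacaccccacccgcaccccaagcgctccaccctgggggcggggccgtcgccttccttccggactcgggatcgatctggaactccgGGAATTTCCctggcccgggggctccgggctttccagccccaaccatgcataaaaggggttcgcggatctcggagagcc
CXCL8: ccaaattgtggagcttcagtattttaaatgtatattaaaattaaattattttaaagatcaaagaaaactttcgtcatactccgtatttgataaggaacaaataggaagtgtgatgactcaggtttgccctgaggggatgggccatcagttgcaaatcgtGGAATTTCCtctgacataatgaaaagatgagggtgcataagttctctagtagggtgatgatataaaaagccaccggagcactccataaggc
CXCL10: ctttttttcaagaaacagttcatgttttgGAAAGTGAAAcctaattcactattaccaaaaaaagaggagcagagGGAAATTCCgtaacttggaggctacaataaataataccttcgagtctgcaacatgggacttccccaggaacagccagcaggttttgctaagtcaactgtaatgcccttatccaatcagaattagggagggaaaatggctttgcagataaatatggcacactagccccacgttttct
CXCL11: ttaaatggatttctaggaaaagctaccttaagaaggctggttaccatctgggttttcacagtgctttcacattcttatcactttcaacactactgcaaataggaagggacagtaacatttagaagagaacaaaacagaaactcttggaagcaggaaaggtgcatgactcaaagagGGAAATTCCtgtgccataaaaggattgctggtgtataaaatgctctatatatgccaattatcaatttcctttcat

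The NF-kB letters were present in 6 of the 8 windows, against 0.413% of all 35116 RefSeq promoters of the same length. Since these letters were chosen with the promoters known, the excess is not evidence. The similar windows of CXCL1, CXCL2 and CXCL3 are also not separate observations. In CXCL1 and CXCL3 they lay 78 to 70 bases before the start, in CXCL2 77 to 69 bases and in CXCL8 91 to 83 bases. On the other strand they lay 176 to 168 bases before the start of CXCL10 and 75 to 67 bases before that of CXCL11. The short interferon-type motif was found in CXCL9, 171 to 162 bases before the start, and in CXCL10, 221 to 212 bases before it, against 3.02% of all promoters. TATAAA was present in CXCL8, CXCL9, CXCL11 and CCL20, against 6.80% of all promoters. A match describes the letters in a window and does not show that a factor was bound.

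The windows fell into a set above and a set below the median CpG content. CXCL1, CXCL2 and CXCL3 held 18, 20 and 19 CpG dinucleotides, above the median of 11 over all promoters. Of all promoters, 63.2%, 67.6% and 65.4% held fewer, so these windows were only moderately above the median. The other 5 windows held few: 4 in CXCL8, 3 in CXCL10 and in CCL20, and 0 in CXCL9 and in CXCL11. The CXCL1 window was identical at 84.0% of positions to that of CXCL3 and at 72.4% to that of CXCL2, but at 46.4% to that of CXCL8. DNA methylation of these windows was not analysed here.

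The label check came first. The TPM of UHRF1 was 87.5 and 98.4 with shScr and 31.7 and 32.7 with shUHRF1 in HCT116, and 47.3 and 50.6 with shScr and 34.1 and 21.1 with shUHRF1 in UF1hypo. Each shUHRF1 group therefore lay below the shScr group of its line without overlap, and UF1hypo shScr lay below HCT116 shScr. The log2 fold change of the knockdown was −1.5 in HCT116 (limma adjusted p = 0.0564) and −0.84 in UF1hypo (adjusted p = 0.0406), so UHRF1 itself was not called in either line. Among 7 epithelial markers, 6 exceeded a TPM of 1 in every library, and VIL1 alone reached at most 0.142. Depth, recovered as aligned bases, ranged from 5.42 to 7.84 gigabases. The files hold no read counts, so a TPM of 0 is given as listed at 0, and no ratio of TPM was formed against a group at 0. Fitted differences that involve such a group depend on the added 1.

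CXCL16 made up most of the chemokine mRNA in every library. The summed TPM of the 10 genes was 68.4 and 54.7 with shScr and 42.2 and 40.6 with shUHRF1 in HCT116, and 86.3 and 82.5 with shScr and 101.0 and 92.7 with shUHRF1 in UF1hypo. CXCL16 supplied 81.2% to 96.9% of these sums and ranked between 2137 and 4171 among 19942 protein-coding genes. The other 9 genes stayed at or below a TPM of 5.27, and of these CXCL10, CXCL11 and CCL20 stayed below 1 in every library. CXCL9 was listed at 0 in all 8 libraries.

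**Figure D1:**
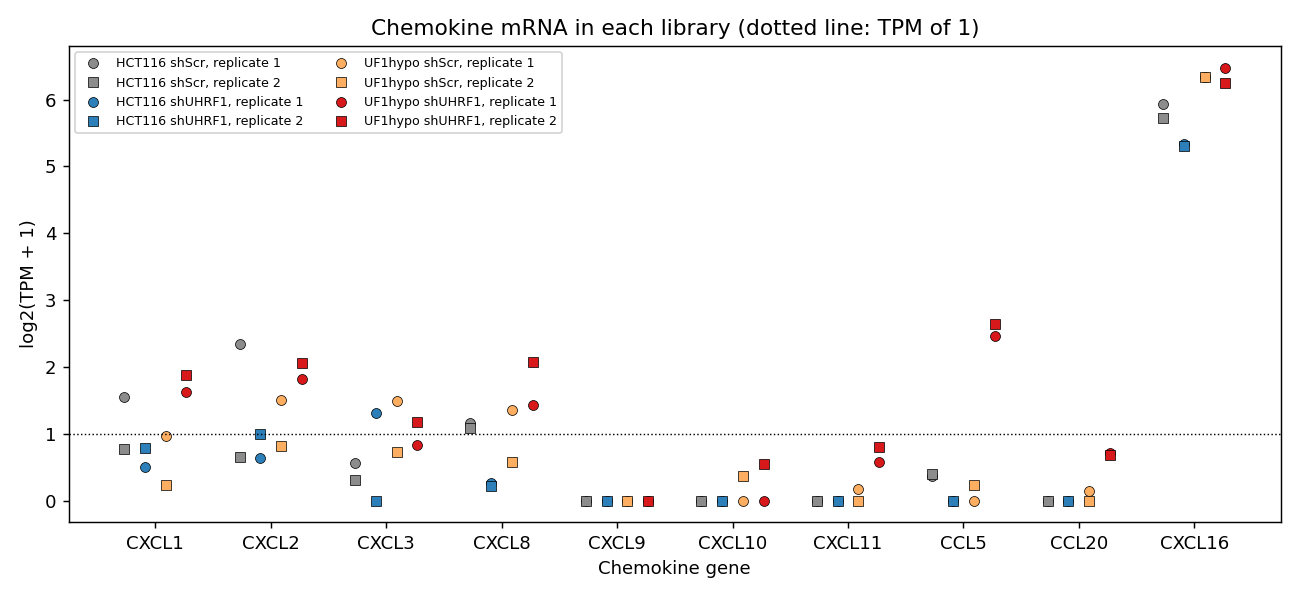
Level of each chemokine (horizontal axis) as log2(TPM + 1) (vertical axis), 1 point per library, coloured by group, with circles for replicate 1 and squares for replicate 2. CXCL16 lies far above the other genes in all 8 libraries. CCL5, CXCL1, CXCL8, CXCL11 and CCL20 are each higher in both UF1hypo shUHRF1 libraries than in the other 6, with the widest gap for CCL5.

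All libraries entered a single limma fit of log2(TPM + 1) with the 4 groups as terms. Protein-coding genes with a TPM over 1 in 1 or more of the compared libraries were tested. A call required a Benjamini-Hochberg adjusted p over all tested genes below 0.05 and a log2 fold change beyond 1 in either direction. Log2 fold changes are differences of log2(TPM + 1), which understate changes at low TPM. For a single gene, an exact two-sided permutation test of 2 libraries against 2 cannot go below p = 0.333. Fewer cells that transcribe a gene and less RNA per cell cannot be told apart in these bulk libraries.

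The first question was how the knockdown acted on chemokine mRNA in the parental line. In HCT116, limma called 0 of the 5 tested chemokines, and 0.0708% of all 12704 tested genes. CXCL8 and CXCL16 had an unadjusted p below 0.05, as did 810 of all tested genes. CXCL8 passed the TPM filter there only through the shScr libraries, where it is high. CCL5, CCL20, CXCL9, CXCL10 and CXCL11 did not exceed a TPM of 1 there and were not tested.

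The same knockdown in UF1hypo raised 1 chemokine, CCL5. It was the only call among 6 tested chemokines, where 8.53% of all 13620 tested genes were called and 7.39% were called higher. CCL5 entered the test only through the shUHRF1 libraries, where it is high, so this count by itself supports nothing. Besides CCL5, CXCL1 and CXCL8 had an unadjusted p below 0.05, as did 3735 of all tested genes. CXCL1 also passed the TPM filter only through the shUHRF1 libraries, where it is high. CCL20, CXCL9, CXCL10 and CXCL11 were not tested.

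Whether the knockdown effect differed between the lines was tested as an interaction, UF1hypo minus HCT116. CCL5 was again the 1 call among 6 tested chemokines, against 5.09% of 13781 genes in either direction and 4.54% that were more positive in UF1hypo. CXCL1, CXCL8 and CXCL16 were at an unadjusted p below 0.05 beside it, as were 2549 of all genes, and were not called. CCL5 again entered the test only through the UF1hypo shUHRF1 libraries. This comparison uses the same libraries as both knockdown comparisons, so its values are not separate evidence.

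UF1hypo was also set against HCT116 with the control hairpin in both. Limma called 0 of 5 tested chemokines, against 3.54% of 12856 genes, and 1, CXCL16, had an unadjusted p below 0.05, as did 2341 of all genes. The HCT116 shScr and UF1hypo shScr libraries of this comparison are also the controls of the knockdown comparisons.

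**Figure D2:**
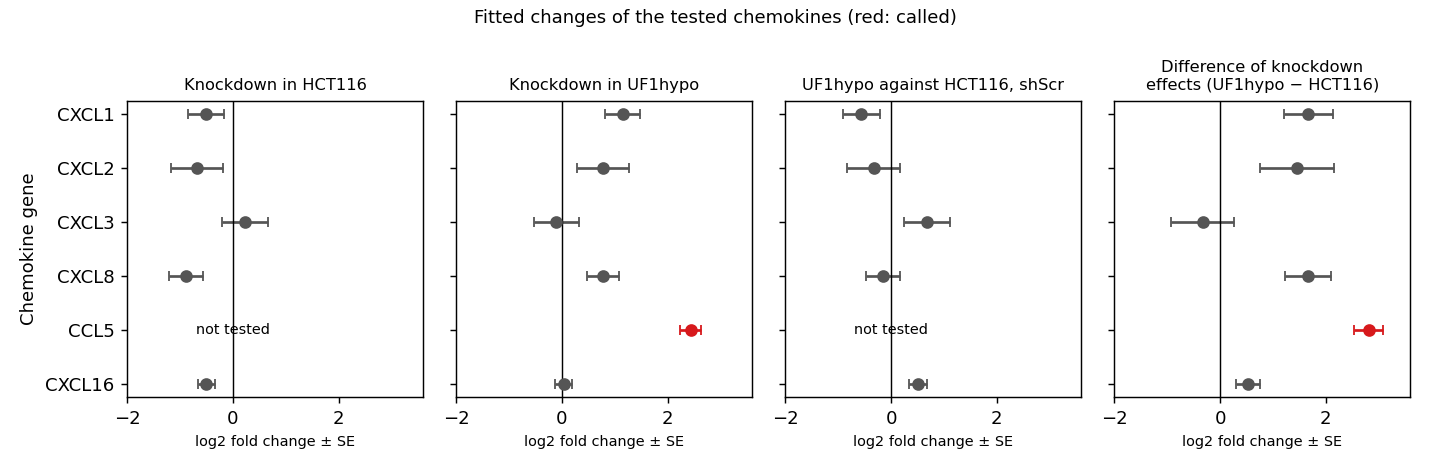
Log2 fold change with its standard error (horizontal axis) of the 6 chemokines tested at least once (vertical axis), in each of the 4 comparisons, from the limma fit. CCL5 is the only called gene (red), at 2.43 for the knockdown in UF1hypo and 2.81 for the difference of the knockdown effects.

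CCL5 (ENSG00000271503.6; GRCh38 chr17:35871491-35880793, minus strand) attracts T cells and monocytes. In TPM it was at 0.286 and 0.316 with shScr and 0 and 0 with shUHRF1 in HCT116, and 0 and 0.181 with shScr and 4.49 and 5.27 with shUHRF1 in UF1hypo. Both UF1hypo shUHRF1 libraries thus lay above all other 6, which all stayed below 1. The same separation, with smaller gaps, was seen for CXCL1, CXCL8, CXCL11 and CCL20. The mean read coverage per base behind the high values was 12.2 and 13.1, against at most 0.801 elsewhere. In UF1hypo the knockdown changed CCL5 by 2.43 on the log2 scale (SE 0.197, limma adjusted p = 0.000147). This exceeded the change in HCT116 by 2.81 (SE 0.279, limma adjusted p = 0.00119), and both calls held under the other scalings and filters. With 1 library left out, the values ran from 2.31 to 2.55 for the knockdown and from 2.69 to 2.93 for the difference. Such fits leave 1 library in a group and take the spread from the other groups, so their calls are not read as support. The HCT116 shUHRF1 libraries in the difference between the lines are listed at 0, so its size depends on the added 1. These libraries also add no spread to the shared fit. With the UF1hypo libraries alone, the knockdown there had an SE of 0.267 and a limma adjusted p of 0.009. CCL5 passed the TPM filter only through the UF1hypo shUHRF1 libraries, where it is high. A lncRNA, ENSG00000270240, overlaps CCL5 on the opposite strand. Its TPM was at most 1.84, and since strandedness is not given in the sources used here, reads of the pair may have been shared.

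CCL5 is best known from T cells, so markers of leukocytes were read beside it. The summed TPM of 15 leukocyte markers was 7.44 and 9.35 with shScr and 15.7 and 14.1 with shUHRF1 in HCT116, and 19.1 and 14.5 with shScr and 96.1 and 84.0 with shUHRF1 in UF1hypo. The sum was therefore also highest where CCL5 was high. HCLS1, an actin regulator of blood cells, accounted for 47.1 and 51.8 of the last 2 sums, and CORO1A, another actin-binding protein, for 37.9 and 22.7. CD3D, a chain of the T cell receptor complex, stood at 5.05 and 2.99 in these libraries and at most at 0.349 elsewhere. In UF1hypo, HCLS1, CORO1A and CD3D rose with the knockdown and were the 3 called of 7 tested markers, where 7.39% of all tested genes were called higher. CD3D passed the TPM filter only through the shUHRF1 libraries, so this count supports nothing by itself. Of the other 12 markers, several were low but above 0 in UF1hypo shUHRF1: TYROBP stood at 0.576 and 2.53, CSF1R at 1.77 and 1.53 and ITGAM at 1.21 and 0.971, and CD79A reached 1.61 in UF1hypo shScr. The pan-leukocyte gene PTPRC was listed at 0 in 6 libraries and stood at 0.0561 and 0.0728 in UF1hypo shUHRF1. CD3E reached at most 0.211, MS4A1 at most 0.180, and CD2 was listed at 0 in all 8 libraries. Of the other lists, the summed TPM of 6 fibroblast markers was 23.0 and 28.9 with shScr and 66.2 and 38.3 with shUHRF1 in UF1hypo, with 1 marker over a TPM of 1 in each library, COL1A1 (0.94, SE 0.266, limma adjusted p = 0.0518). The 3 endothelial markers summed to at most 0.587. The part of leukocyte or fibroblast transcripts in the CCL5 values was not tested.

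**Figure D3:**
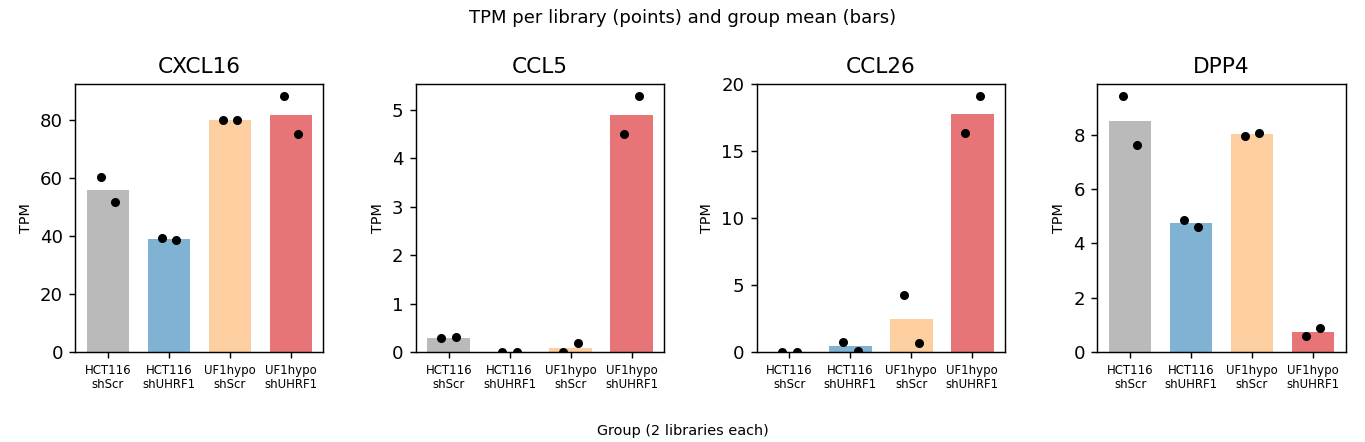
TPM (vertical axes, linear, each from 0) of CXCL16, CCL5, CCL26 and DPP4 in the 4 groups (horizontal axes), with a point per library and a bar at the group mean. CCL5 reaches 4.49 and 5.27 in UF1hypo shUHRF1, where DPP4 is lowest, at 0.597 and 0.879.

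CXCL16 (ENSG00000161921.17; GRCh38 chr17:4733533-4739928, minus strand), the membrane-anchored ligand of CXCR6, had a different pattern. Its TPM was 60.4 and 51.7 with shScr and 39.5 and 38.7 with shUHRF1 in HCT116, and 79.9 and 79.9 with shScr and 88.2 and 75.3 with shUHRF1 in UF1hypo. All 4 UF1hypo libraries lay above all 4 HCT116 libraries. The group means were ordered as HCT116 shUHRF1 (39.1 ± 0.587, SD, n = 2 here and below), HCT116 shScr (56.1 ± 6.16), UF1hypo shScr (79.9 ± 0.0178) and UF1hypo shUHRF1 (81.7 ± 9.14), and the last 2 groups overlapped. The log2 fold change was −0.50 (SE 0.161, limma adjusted p = 0.468) for the knockdown in HCT116. It was 0.51 (SE 0.161, adjusted p = 0.127) for UF1hypo against HCT116 with shScr. For the knockdown in UF1hypo it was 0.03 (SE 0.157, adjusted p = 0.927), a value whose sign turned under FPKM and other scalings. Differences of this size lie below the fold required for a call. MED11 and ZMYND15 overlap CXCL16 on the opposite strand, with a TPM of 21.7 to 32.0 and of 2.66 to 5.47, so a part of these reads cannot be assigned with certainty.

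The neutrophil chemokines were low and varied between replicates. CXCL8 (ENSG00000169429.11; GRCh38 chr4:73740541-73743716, plus strand), also known as interleukin-8, had a TPM of 1.23 and 1.12 in HCT116 shScr and 0.200 and 0.168 in HCT116 shUHRF1. In UF1hypo it was 1.55 and 0.497 with shScr and 1.69 and 3.19 with shUHRF1. The hairpin groups did not overlap in either line, with the shUHRF1 libraries lower in HCT116 and higher in UF1hypo. For the knockdown in HCT116, CXCL8 passed the TPM filter only through the shScr libraries. The log2 fold change was −0.88 (SE 0.323, limma adjusted p = 0.604) in HCT116 and 0.78 (SE 0.306, adjusted p = 0.140) in UF1hypo. The latter ran from 0.39 without UF1hypo shScr replicate 2 to 1.16 without replicate 1 of that group. The difference between these effects was 1.66 (SE 0.433, adjusted p = 0.0716), which did not pass the test. It was 1.98 without UF1hypo shUHRF1 replicate 1 and 1.34 without replicate 2 of that group. Leaving out any of the other 6 libraries gave values from 1.27 to 2.04. Such fits leave 1 library in a group and take the spread from the other groups, so whether they passed is not read.

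CXCL1 (ENSG00000163739.5; GRCh38 chr4:73869393-73871308, plus strand), whose promoter carries the NF-kB letters among 18 CpG dinucleotides, had a TPM of 1.92 and 0.704 in HCT116 shScr and 0.419 and 0.721 in HCT116 shUHRF1. In UF1hypo it was 0.948 and 0.181 with shScr, and 2.09 and 2.69 with shUHRF1. The HCT116 groups overlapped, and the UF1hypo groups did not. The log2 fold change was −0.51 (SE 0.345, limma adjusted p = 0.962) in HCT116 and 1.15 (SE 0.331, adjusted p = 0.0546) in UF1hypo. With 1 library left out the former ran from −0.90 (without HCT116 shScr replicate 2) to −0.38, and the latter from 0.79 to 1.51. Without HCT116 shScr replicate 1, CXCL1 did not pass the TPM filter in HCT116. The difference between them was 1.67 (SE 0.468, adjusted p = 0.0896). CXCL1 and CXCL8 thus both stayed short of a call. When GC content and transcript length were corrected for, both were called for the knockdown in UF1hypo and for the difference of effects. In UF1hypo CXCL1 was then at 1.29 (limma adjusted p = 0.0150) and CXCL8 at 1.02 (adjusted p = 0.0125), and the differences were 1.81 and 1.86. Quantile scaling lowered the values in UF1hypo to 0.75 (adjusted p = 0.182) and 0.38 (adjusted p = 0.446). A pseudocount of 0.1 gave 2.19 and 1.29 there, and 3.15 and 3.45 for the difference, without a call. For the knockdown in UF1hypo, CXCL1 passed the TPM filter only through the shUHRF1 libraries, where it is high.

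CXCL2 (ENSG00000081041.9; GRCh38 chr4:74097040-74099196, minus strand) had its highest TPM in 1 control library. It was 4.05 and 0.574 with shScr and 0.561 and 0.997 with shUHRF1 in HCT116, and 1.85 and 0.759 with shScr and 2.52 and 3.16 with shUHRF1 in UF1hypo. The HCT116 shScr libraries were farther apart than the lowest and highest of the other 6, and only the UF1hypo groups did not overlap. The log2 fold change was −0.68 (SE 0.494, limma adjusted p = 0.997) in HCT116 and 0.77 (SE 0.493, adjusted p = 0.351) in UF1hypo. With 1 library left out it ran from −1.52 (without HCT116 shScr replicate 2) to −0.50 in HCT116, and from 0.43 (without UF1hypo shScr replicate 2) to 1.12 in UF1hypo. Without HCT116 shScr replicate 1, the library at 4.05, CXCL2 did not pass the TPM filter in HCT116, so that range does not cover it. CXCL3 (ENSG00000163734.4; GRCh38 chr4:74036589-74038807, minus strand) stood at 0.471 and 0.238 with shScr and 1.49 and 0 with shUHRF1 in HCT116, and 1.80 and 0.661 with shScr and 0.777 and 1.26 with shUHRF1 in UF1hypo. The knockdown groups overlapped in both lines. Its fitted changes were 0.23 (SE 0.436) in HCT116 and −0.11 (SE 0.426) in UF1hypo, with limma adjusted p of 1.0 and 0.896. With 1 library left out the value in HCT116 ran from 0.10 (without HCT116 shScr replicate 2) to 0.89 (without HCT116 shUHRF1 replicate 2), and without replicate 1 of the latter group CXCL3 did not pass the TPM filter. Summed over CXCL1, CXCL2, CXCL3 and CXCL8, the TPM was 7.68 and 2.64 with shScr and 2.67 and 1.89 with shUHRF1 in HCT116, and 6.15 and 2.1 with shScr and 7.07 and 10.3 with shUHRF1 in UF1hypo. In both shScr groups replicate 1 lay above replicate 2 in all 4 genes. The transcripts of these paralogs share sequence: 5.3% of the 50-base windows of CXCL1 also occur in CXCL2, and 5.1% of those of CXCL2 in CXCL3, so the authors' quantification could have split a part of their reads.

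The CXCR3 ligands were barely detected. CXCL9 (ENSG00000138755.6; GRCh38 chr4:76001275-76007509, minus strand), an interferon-gamma target, was listed at 0 throughout. CXCL10 (ENSG00000169245.6; GRCh38 chr4:76021118-76023497, minus strand) was listed at 0 except in UF1hypo shScr replicate 2 at 0.288 and UF1hypo shUHRF1 replicate 2 at 0.467. CXCL11 (ENSG00000169248.13; GRCh38 chr4:76033682-76041415, minus strand) was listed at 0 in all 4 HCT116 libraries, and in UF1hypo it stood at 0.127 and 0 with shScr and at 0.498 and 0.741 with shUHRF1. For CXCL11 the UF1hypo hairpin groups did not overlap, whereas for CXCL10 they did. All nonzero values of both genes were in UF1hypo libraries. Tested without the TPM filter, CXCL11 differed by 0.60 (SE 0.0923, limma adjusted p = 0.00965) after the knockdown in UF1hypo, below the fold required for a call. The HCT116 libraries, all at 0 for CXCL11, add no spread to the shared fit. This SE and adjusted p are therefore not read as replicate agreement. ART3 overlaps CXCL10 and CXCL11 on the opposite strand and was listed at 0 except in UF1hypo shUHRF1, at 0.235 and 0.674.

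CCL20 (ENSG00000115009.13; GRCh38 chr2:227805739-227817564, plus strand), the ligand of CCR6, followed a similar order at a low level. It was listed at 0 in all 4 HCT116 libraries, and in UF1hypo it stood at 0.0995 and 0 with shScr and at 0.646 and 0.612 with shUHRF1. Coverage in the last group was 0.818 and 0.970 reads per base, so few reads lay behind these values. The UF1hypo hairpin groups did not overlap. Without the TPM filter the knockdown in UF1hypo changed CCL20 by 0.64 (SE 0.0635, limma adjusted p = 0.00177), again below the fold required for a call. A fitted difference from HCT116, where all libraries are listed at 0, would only restate this value and is not given. Those zeros add no spread to the shared fit, so the SE and adjusted p are not read as replicate agreement.

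Among 34 other chemokine genes, 1 was tested in each knockdown. CCL26, also called eotaxin-3 and an attractant of eosinophils, was listed at 0 in both HCT116 shScr libraries. It stood at 0.739 and 0.118 after knockdown in that line. In UF1hypo it was 4.24 and 0.657 with shScr, and 16.4 and 19.1 with shUHRF1. The last group lay above all others, while the UF1hypo shScr replicates were far apart. The knockdown in UF1hypo raised CCL26 by 2.67 (SE 0.476, limma adjusted p = 0.00793), and the difference from HCT116 was 2.19 (SE 0.672, adjusted p = 0.115). In HCT116 the gene tested was CXCL17, at −0.18 (SE 0.319).

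Of 22 chemokine receptors, 2 were tested in HCT116 and 5 in UF1hypo, so most receptors of the listed ligands lay below the filter. CCR4, a receptor of T helper cells, was the 1 called in UF1hypo, beside 8.53% of all tested genes. Its TPM was at most 0.0620 in 6 libraries and was 0.867 and 1.59 in UF1hypo shUHRF1, so it passed the TPM filter through 1 library of the group where it is high. Its change was 1.09 (SE 0.215, limma adjusted p = 0.0124), and the difference from HCT116 was not called (adjusted p = 0.0885).

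The upstream NF-kB list held 20 genes, of which 16 were tested in HCT116 and 17 in UF1hypo. None was called after knockdown in HCT116, beside 0.0708% of all tested genes there, and the median log2 fold change of the list was −0.13. In UF1hypo 2 rose and 0 fell, where 7.39% of all tested genes were called higher, so the count is near that background, with a list median of 0.39 beside 0.0388 over all tested genes. RELB, a subunit of the non-canonical pathway, went from a TPM of 27.3 and 31.1 to 92.7 and 56.9 in UF1hypo, a change of 1.29 (SE 0.236, limma adjusted p = 0.00886). TNFAIP3, which encodes the inhibitor A20, had 2.89 and 2.61 against 7.34 and 6.68, a change of 1.09 (SE 0.206, adjusted p = 0.0100). Both groups were separate for each gene. Of the list, only RELB was called for the difference between the lines, at 1.43 (SE 0.333, adjusted p = 0.0465), 1 of 17 beside 4.54% of all genes more positive in UF1hypo. In UF1hypo shScr against HCT116 shScr the inhibitor gene NFKBIA was the only call of 16, at 1.27 (SE 0.173, adjusted p = 0.00431), where 2.59% of all genes were called higher.

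In the list of 16 interferon signalling genes, none of 14 tested was called in HCT116, beside 0.0708% of all tested genes, with a median of 0.11. In UF1hypo 7 of 15 tested genes rose and 0 fell, beside 7.39% of all tested genes called higher, with a median of 0.88. IFNL1, a type III interferon of epithelial cells, stood in UF1hypo at 0.627 and 0 with shScr and at 14 and 9.55 with shUHRF1, a change of 3.30 (SE 0.286, limma adjusted p = 0.000213). It entered the test only through the group where it is high. IRF7, the factor that amplifies interferon transcription, rose by 1.84 (SE 0.230), from 128.0 and 150.0 to 608.0 and 407.0. IRF9, the DNA-binding part of the ISGF3 complex, rose by 1.73 (SE 0.179), and IFIH1, which encodes the RNA sensor MDA5, by 1.59 (SE 0.203). These 4 genes were also those called of 15 for the difference between the lines, beside 4.54% of all genes. With the control hairpin, 6 of 14 tested genes were higher in UF1hypo than in HCT116, beside 2.59% of all tested genes, led by IRF7 at 3.08, IFIH1 at 2.93, IRF9 at 2.78 and RIGI at 2.46. The TPM of IRF7, IRF9 and IFIH1 lay above 30 in all UF1hypo libraries, and that of the CXCR3 ligands below 1. This list was chosen with interferon results of these libraries known, so its direction is not independent evidence.

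**Figure D4:**
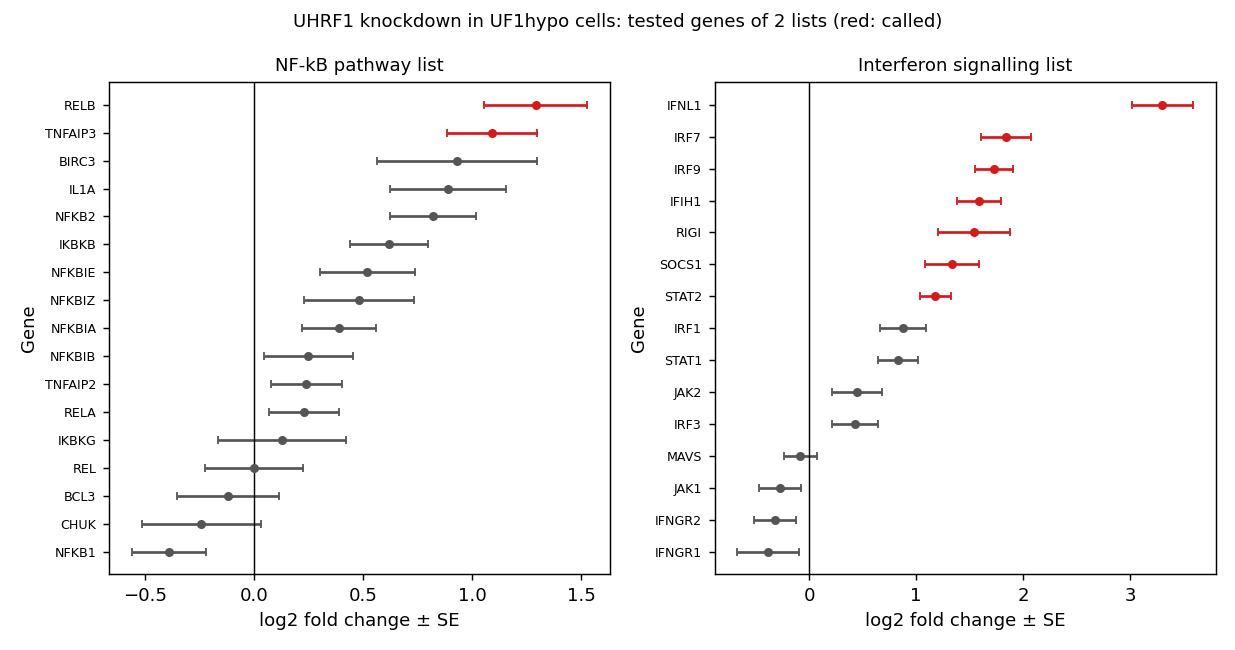
Log2 fold change with its standard error (horizontal axes) after UHRF1 knockdown in UF1hypo for the tested genes (vertical axes) of the NF-kB list and of the interferon signalling list. Called genes are red: 2 of 17 on the left, and 7 of 15 on the right.

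Genes that process chemokine proteins or control the decay of their mRNA were covered by a list of 11 genes, all tested, of which 0 were called in HCT116, beside 0.0708% of all tested genes, and 1 in UF1hypo, beside 8.53%. That gene was DPP4, a surface peptidase known to trim CCL5, CXCL10 and CXCL11. Its TPM was 9.41 and 7.61 with shScr and 4.86 and 4.62 with shUHRF1 in HCT116, and 7.97 and 8.05 with shScr and 0.597 and 0.879 with shUHRF1 in UF1hypo. The shUHRF1 libraries were below the shScr libraries in both lines, without overlap. In UF1hypo DPP4 fell by 2.38 (SE 0.206, limma adjusted p = 0.000213), where 1.14% of all tested genes were called lower. That share came from 155 genes called lower, a count that was 289 under quantile scaling and larger again without UF1hypo shUHRF1 replicate 2. The fall was larger than in HCT116 by −1.66 (SE 0.291, adjusted p = 0.0165).

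The genes with the most similar profile over the 8 libraries were sought among 13775 protein-coding genes, by Pearson's r of log2(TPM + 1), for each chemokine whose group means spanned at least 1 on that scale. These values describe 4 groups of related libraries and carry no test. CCL5 was closest to MYO1G (r = 0.998), a myosin gene, and SYNE1 (r = 0.993), a nuclear envelope gene. CXCL16 was closest to BCAR3 (r = 0.995) and C6orf226 (r = 0.990), CXCL8 to ZSCAN5A (r = 0.979) and ZNF398 (r = 0.966), CXCL1 to ADAM32 (r = 0.979) and SAP30BP (r = 0.939), and CXCL2 to ADAM32 (r = 0.931) and OTUD7B (r = 0.923). BCAR3, an adaptor of integrin signalling, reached 25.6 and 21.8 with shScr and 11.8 and 10.6 with shUHRF1 in HCT116, and 41.1 and 42.2 with shScr and 51.4 and 41.6 with shUHRF1 in UF1hypo, the same order of groups as CXCL16. CXCL3, CXCL9, CXCL10, CXCL11 and CCL20 did not span that range.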

How the data were processed

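RNA-seq was analysed for 8 libraries, grouped by the line and hairpin in their titles. Upstream, the authors used Fastp for trimming, HISAT2 2.0.4 for alignment to GRCh38 and StringTie 2.1.4 for gene abundances, and the annotation release is not given in the sources used here. Coverage was deposited as mean per-base read depth, FPKM was normalized by the authors for length and depth, and TPM was scaled by the authors to 1000000 per library. Aligned bases (5.42 to 7.84 gigabases) were derived by dividing coverage by FPKM. Without read counts the counting error of a gene is unknown, and the DESeq2 test of the authors could not be applied.

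Records of 1 gene identifier were summed and matched to GENCODE 44. The 19942 protein-coding genes entered limma 3.58.1 (R 4.3.3) as log2(TPM + 1), with a mean trend, 4 residual degrees of freedom and Benjamini-Hochberg adjustment over all tested genes. The fit was also run on simulated data with normal noise and with changes placed only in more highly expressed genes. That run does not cover values near 0, where most of these chemokines lie. Tables and figures used Python 3.11.15, numpy 2.4.6, pandas 2.3.3 and matplotlib 3.10.9. The chemokines, gene lists and alternatives were chosen with earlier results of these data known. Named genes were the 10 chemokines, UHRF1, the 2 most similar profiles per chemokine that met the rule, and up to 4 called genes per list and comparison. Genes that overlap a chemokine were named for their levels. CXCL17 was named as the other chemokine tested in HCT116, and VIL1 as the epithelial marker at a low TPM. Marker genes were named beside CCL5 after their values were seen. Alternatives were each library left out in turn, all annotated genes, no TPM filter, a pseudocount of 0.1, the libraries of a comparison alone, FPKM, median-ratio and quantile scaling, variances without a trend, a correction within 10 bins of GC content and of length, the largest record per gene, and a replicate block.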

Additional observations from a re-analysis of the deposited data

Results flagged for a closer look

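The knockdown effect on CCL5 differed between the lines. The difference, UF1hypo minus HCT116, was 2.81 on the log2(TPM + 1) scale by the interaction term of the limma fit, with an adjusted p of 0.00119. CCL5 passed the TPM filter only through the group where it is high, and the size depends on the added 1, reaching 6.89 at a pseudocount of 0.1. Both UF1hypo shUHRF1 libraries, at a TPM of 4.49 and 5.27, lay above all other 6, and both HCT116 shUHRF1 libraries were listed at 0. CXCL1, CXCL8, CXCL11 and CCL20 were also higher in these UF1hypo shUHRF1 libraries than in the other 6.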

How the results depend on the processing

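CCL5 stayed called in every setting that kept 2 libraries per group, for the knockdown in UF1hypo and for the difference of effects. Values ran from 1.57 to 4.89 for the knockdown in UF1hypo, with limma adjusted p of 9.43e-05 to 0.009. For the difference they ran from 1.75 to 6.89. The largest record per gene gave the same counts as the reported setting, so it adds nothing to this. The correction for GC content and length gave 3 called chemokines in place of 1 for both (CCL5, CXCL1 and CXCL8), beside 1109 and 1046 calls over all genes, and the cause was not tested. Leaving out 1 library left a group of 1, so the other groups gave the spread and calls in those fits support nothing by themselves. The titles number the replicates without saying whether the numbers pair the samples. The r of deviations was −0.402 between the UF1hypo groups and −0.0292 to 0.0547 otherwise, which cannot decide this. With the replicate number as a block, the calls over all genes went from 9 to 1 in HCT116, 1162 to 1110 in UF1hypo, 455 to 369 for the clone and 702 to 471 for the difference, and 0, 1, 0 and 1 chemokines were called. A crossed replicate block, with the replicate numbers swapped in UF1hypo shUHRF1, was added after seeing the data and is read for counts only. It called 2 chemokines for the knockdown in UF1hypo and 2 for the difference, and 17, 1207, 484 and 693 genes. Counts over all genes, and so the backgrounds, moved more. The knockdown in UF1hypo gave 563 calls with its libraries alone, 748 with FPKM, 655 without UF1hypo shScr replicate 1 and 2255 without UF1hypo shUHRF1 replicate 2. The difference gave 448 at a pseudocount of 0.1, 171 to 271 without a library of the other 3 groups, and 1073 and 2142 without UF1hypo shUHRF1 replicate 1 or 2. The clone gave 149 to 190 without a library of either shScr group. HCT116 gave 0 to 100 over all settings, 0 without any 1 of its own libraries, 99 and 100 without UF1hypo shUHRF1 replicate 1 or 2, 89 with its libraries alone and 76 under the GC and length correction. Signs turned only for values below the fold required for a call. CXCL3 turned to −0.14 in HCT116 at a pseudocount of 0.1. In UF1hypo it turned to 0.03 under the GC and length correction, 0.27 without shScr replicate 1 and 0.06 without shUHRF1 replicate 1 (leave-one-out range −0.48 to 0.27). Its difference of effects turned to 0.32 without HCT116 shUHRF1 replicate 1 and 0.04 without UF1hypo shScr replicate 1 (range −0.99 to 0.32). CXCL16 in UF1hypo turned to −0.04 with FPKM, −0.08 with quantile scaling, −0.19 under the GC and length correction, and −0.08 without shUHRF1 replicate 1 (range −0.08 to 0.14). For the clone against HCT116, CXCL2 turned to 0.51 without HCT116 shScr replicate 1 and 0.02 without UF1hypo shScr replicate 2 (range −1.17 to 0.51), and CXCL8 to 0.15 under the GC and length correction and 0.23 without UF1hypo shScr replicate 2 (range −0.54 to 0.23). CXCL16 was never called. In the settings with 2 libraries per group, its limma adjusted p for the clone ran from 0.0131 to 0.197. For the knockdown in HCT116 it ran from 0.034, with the HCT116 libraries alone, to 0.708, with the replicate block. Under the GC and length correction it was 0.0348 there. Without counts, the error behind a TPM below 1 is unknown.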
